A study of Mus musculus with 8 samples.

Results

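The genes described are 9 keratins (Krt5, Krt6a, Krt7, Krt8, Krt14, Krt15, Krt17, Krt18 and Krt19) and vimentin (Vim), 10 of the 27179 genes in the count table, chosen by symbol. They were followed in 4 isogenic lines from mouse mammary tumours, named 4T1.2, 4T1, 66cl4 and 67NR (the sample labels write the third name with a digit, 66c14). RNA-seq libraries had been made from 2 biological replicates of each line, 8 in all. No treatment was applied to any line, and no gene had been altered for these libraries as far as the labels say. 4T1.2 is the line whose spontaneous spread to bone the study examined. Each group is a cell line, so differences between groups are differences between lines, measured over 2 replicates each. The study compared the lines, and the question addressed here is how far the filament genes that mark luminal, basal and mesenchymal cells separate them.

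Keratins form the intermediate filaments of epithelial cells. A filament needs a type I keratin (Krt14, Krt15, Krt17, Krt18 and Krt19 here) and a type II keratin (Krt5, Krt6a, Krt7 and Krt8 here) in equal amounts, and a keratin protein without a partner is normally degraded. In the mammary gland Krt8 pairs with Krt18 in luminal cells, which also make Krt7 and Krt19, whereas basal myoepithelial cells make Krt5 with Krt14 and Krt17. Krt15 is a keratin of basal progenitor cells and Krt6a of proliferating or stressed epithelium. Vimentin is a type III filament protein that assembles with itself, is the usual filament of mesenchymal cells, and is often made beside keratins in carcinoma lines.

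Krt8 and Krt18 lie next to each other on chromosome 15, on opposite strands with their start sites 23.9 kb apart, and Krt7 lies on the same chromosome. The sequences around these 3 start sites are shown because these genes carry most of the keratin RNA in these lines. Each runs 5′ to 3′ on the gene's strand, from 250 bases before to 50 bases after the RefSeq start (GRCm38.p6). Capitals mark matches, on either strand, to 4 motifs: the TATA box TATAAA, the AP-1 site TGANTCA, the GC box GGGCGG and the E-box CACCTG, to which Snail and Zeb repressors bind.
Krt8, chr15:102004293-102004592, minus strand: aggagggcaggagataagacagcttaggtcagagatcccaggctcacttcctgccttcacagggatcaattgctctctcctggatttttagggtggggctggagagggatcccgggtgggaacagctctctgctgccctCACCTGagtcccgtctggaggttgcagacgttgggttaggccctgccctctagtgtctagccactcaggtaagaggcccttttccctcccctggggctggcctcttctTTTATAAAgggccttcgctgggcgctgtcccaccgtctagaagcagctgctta
Krt18, chr15:102027966-102028265, plus strand: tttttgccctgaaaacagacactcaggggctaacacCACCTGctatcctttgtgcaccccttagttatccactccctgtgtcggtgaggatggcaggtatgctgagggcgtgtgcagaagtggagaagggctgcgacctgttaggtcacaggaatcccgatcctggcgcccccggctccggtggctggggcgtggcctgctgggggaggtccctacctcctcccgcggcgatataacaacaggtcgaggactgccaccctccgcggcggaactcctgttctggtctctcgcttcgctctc
Krt7, chr15:101412153-101412452, plus strand: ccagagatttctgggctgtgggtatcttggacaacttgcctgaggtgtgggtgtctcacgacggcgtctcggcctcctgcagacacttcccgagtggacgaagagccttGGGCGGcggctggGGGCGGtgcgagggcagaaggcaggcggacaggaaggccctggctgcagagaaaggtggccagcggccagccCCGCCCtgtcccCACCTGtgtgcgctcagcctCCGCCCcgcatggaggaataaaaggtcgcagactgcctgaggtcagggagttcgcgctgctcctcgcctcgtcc
The E-box was present in all 3 windows, against 20.2% of 32851 mouse promoters of this length. Of the other members with a promoter entry, Krt5 also held it in its window, and Krt14 and Vim did not. The E-box began 111 bases before the Krt8 start, 214 before the Krt18 start and 44 before the Krt7 start. The GC box occurred 4 times in the Krt7 window and not in the others, and 35.7% of all promoters held it. A TATA box overlapped its own reverse complement at the annotated Krt8 start and was not found as TATAAA in the windows of Krt18 and Krt7 (13.6% of all promoters). The AP-1 letters, present in 7.81% of promoters, were in none of the 3. The Krt7 and Krt18 windows held 21 and 17 CpG dinucleotides and the Krt8 window 6, beside a median of 7 over all promoters. These matches describe letters only and say nothing of binding.

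Total counts ran from 37159840 to 66269681 per library. Levels below are counts scaled to library size after TMM adjustment (CPM) or, for comparing genes with each other, the same divided by gene length (RPKM). Over genes, the log2 levels of replicates correlated at 0.995 to 0.996 and those of different lines at 0.779 to 0.985. Of the markers listed for other cell types, the pan-leucocyte gene Ptprc had 0 to 2 counts per library and Cd3e none. Summed leucocyte markers were 68.1 to 84.4 CPM in 4T1.2 and 4T1, mostly the monocyte receptor gene Cd14, and 41.1 to 64.0 CPM in 66cl4 and 67NR, mostly Cd14 and the lysozyme gene Lyz2. Lyz2 ran the other way from Cd14. It had 0 to 4 counts per library in 4T1.2 and 4T1 and 791 to 1387 in 66cl4 and 67NR. Lyz2 passed the filter on low counts only through 66cl4 and 67NR, so its direction was tied to the filter. In 67NR it exceeded Cd14 (22.7 and 22.5 CPM against 15.3 and 16.2). Of the 5 leucocyte markers tested, 3 were higher and 2, Lyz2 included, were lower in 4T1.2 and 4T1. The 2 endothelial markers tested were higher there, and the list of 6 summed to 0.409 to 3.80 CPM. The part of these markers in the results was not tested. Of the luminal markers, Epcam, the epithelial adhesion molecule, had 778 to 2378 counts per library in 4T1.2 and 4T1 and 0 or 1 in 66cl4 and 67NR. This defining epithelial marker was thus at or near 0 in the latter lines. Of 13 luminal markers, 9 passed the filter on low counts, and 6 were higher and 2 lower in 4T1.2 and 4T1. The 6 had at most 7 counts per library in 66cl4 and 67NR. They passed the filter only through 4T1.2 and 4T1, so their direction was tied to the filter. Esr1 and Muc1 were lower (log2 fold changes -1.89 and -1.36), and Gata3 did not pass the test (0.28, edgeR adjusted p = 0.0514). Over all genes tested, this comparison called 38.1% as higher and 38.6% as lower.

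Vimentin was the most abundant member in every library and Krt8 the second by RPKM. Among all genes in the table ranked by RPKM, Vim stood between places 11 and 43 and Krt8 between places 84 and 234. Krt18 fell from places 88 to 177 in 4T1.2 and 4T1 to places 1055 and 1079 in 66cl4, and to 11773 and 12057 in 67NR. Krt7 stood at places 256 to 339 in 4T1.2 and 4T1 and at places 10949 to 12056 in the other lines. The remaining 6 keratins together gave little RNA: Krt7, Krt8 and Krt18 supplied at least 99.8% of the RPKM summed over the 9 keratins in each library.

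**Figure D1:**
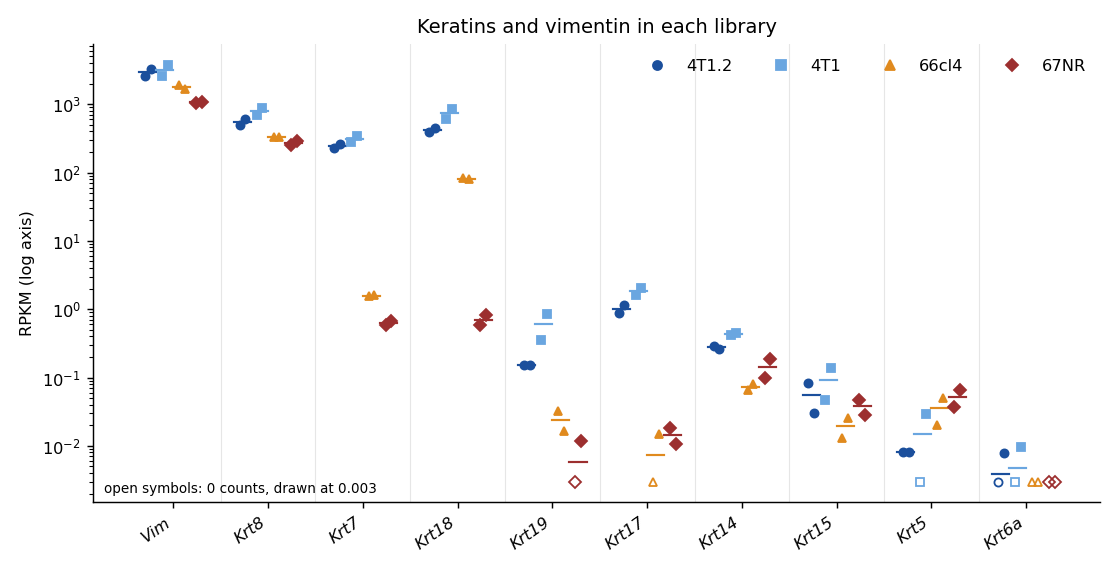
RPKM of the 10 genes in each of the 8 libraries on a log axis, 2 points per line with a bar at their mean, and open symbols for libraries with 0 counts. Vim and Krt8 were high in all 4 lines, Krt7 was high in 4T1.2 and 4T1, Krt18 was high in 3 lines and near 1 RPKM in 67NR, and the basal keratins stayed under 3 RPKM throughout.

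Krt8 (Entrez gene 16691, chromosome 15, 101996711 to 102004342, GRCm38.p6), the type II keratin of simple and luminal epithelium, was expressed in all 4 lines. It measured 907 and 1085 CPM in the 4T1.2 libraries, 1262 and 1602 in 4T1, 602 and 607 in 66cl4, with 463 and 528 in 67NR. No 2 lines overlapped. Krt8 was 2.18-fold higher in 4T1.2 and 4T1 than in 66cl4 and 67NR (log2 fold change 1.13, standard error 0.10, adjusted p = 3.05e-06, edgeR). Between neighbours in this order, it was 1.44-fold lower in 4T1.2 than in 4T1 (edgeR adjusted p = 0.0251) and 1.65-fold above 66cl4 (adjusted p = 0.00106), while 66cl4 and 67NR differed 1.22-fold without passing the test (adjusted p = 0.119). Of the 75-base stretches of its transcript, 23.5% also occur in transcripts of other genes, most of them in the pseudogene Krt8-ps. Reads from these stretches could have come from either. Krt8-ps was not found by name among the counted genes.

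Krt18 (Entrez gene 16668, chromosome 15, 102028216 to 102032026), the type I partner of Krt8, followed a different course. Its libraries held 541 and 623 CPM in 4T1.2, 845 and 1200 in 4T1, 115 and 113 in 66cl4, with 0.819 and 1.13 in 67NR. The raw counts behind the 67NR values were 30 and 70, beside 5067 and 5219 in 66cl4 and 30734 to 55637 in the other lines. Each line stood apart from the next. Krt18 was 113-fold higher in 66cl4 than in 67NR (log2 fold change 6.82, standard error 0.23, adjusted p = 6.09e-08, edgeR) and 578-fold and 1010-fold higher in 4T1.2 and 4T1 than in 67NR (log2 fold changes 9.17 and 9.99). Against 66cl4 the differences were 5.10-fold for 4T1.2 and 8.96-fold for 4T1 (edgeR adjusted p = 9.41e-07 and 1.24e-07). With any library left out, the log2 fold change between 66cl4 and 67NR stayed between 6.65 and 7.12. None of the 75-base stretches of Krt18 is shared with another transcript.

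The ratio of Krt8 to Krt18, computed from RPKM, was 1.33 ± 0.0354 for 4T1.2 (SD, n = 2), 1.10 ± 0.0868 for 4T1, 4.11 ± 0.0776 for 66cl4 and 400 ± 55.4 for 67NR. The libraries of the 4 lines did not overlap. This ratio was described and not tested. Summed over the members, type II keratins exceeded type I keratins 1.91-fold for 4T1.2, 1.53-fold for 4T1, 4.12-fold for 66cl4 and 312-fold for 67NR. In 67NR the 5 type I members together reached 0.749 and 1.05 RPKM, beside 257 and 293 RPKM for the 4 type II members. With all 54 keratin genes counted, this ratio was 170 and 129 in the 67NR libraries. Krt8 transcripts made up 99.4% of the keratin RPKM in 67NR, 80.1% in 66cl4, 43.2% in 4T1 and 45.3% in 4T1.2.

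**Figure D2:**
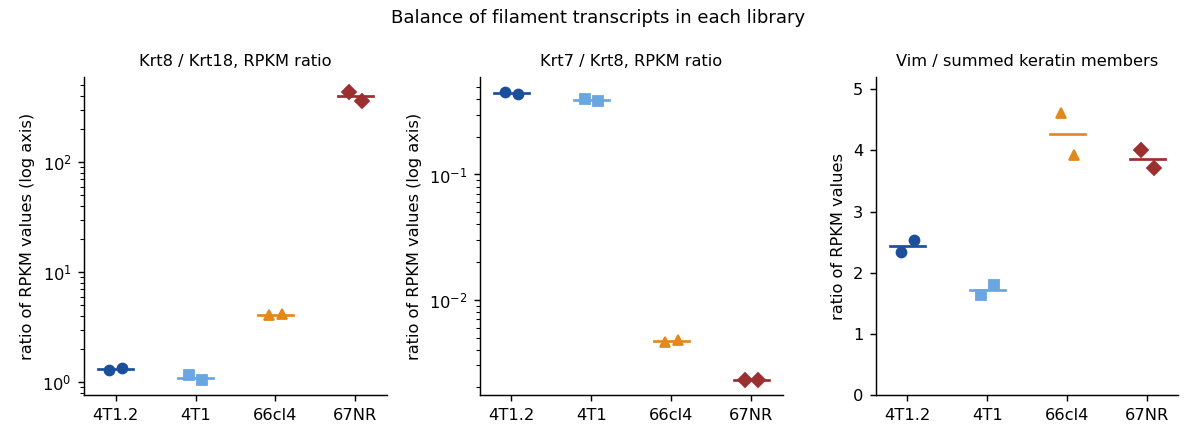
Ratios of RPKM values in each library, 2 points per line with a bar at the mean: Krt8 over Krt18 and Krt7 over Krt8 on log axes, and Vim over the sum of the 9 keratins on a linear axis from 0. Krt8 over Krt18 was between 1.04 and 1.35 in 4T1.2 and 4T1, near 4 in 66cl4 and 361 to 439 in 67NR.

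The low level of Krt18 in 67NR was not shared by its nearest neighbours. Eif4b, the translation factor gene that follows Krt18 on chromosome 15, measured 622 to 792 CPM in 4T1.2 and 4T1, 1282 and 1372 in 66cl4, with 1360 and 1412 in 67NR. It did not pass the test between 66cl4 and 67NR (log2 fold change -0.06, standard error 0.10, adjusted p = 0.652, edgeR), and neither did Tns2, the next gene along, which codes for the focal adhesion protein tensin 2 (0.12, standard error 0.16, adjusted p = 0.562). Spryd3, after Tns2, was higher in 66cl4 than in 67NR by 0.42 on the log2 scale. Farther away the integrin gene Itgb7 fell from 30.5 to 43.0 CPM in 4T1.2 and 4T1 to 0.826 and 1.24 CPM in 66cl4, and in 67NR, where Krt18 was lowest, Itgb7 exceeded its 66cl4 level by 1.79 on the log2 scale.

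**Figure D3:**
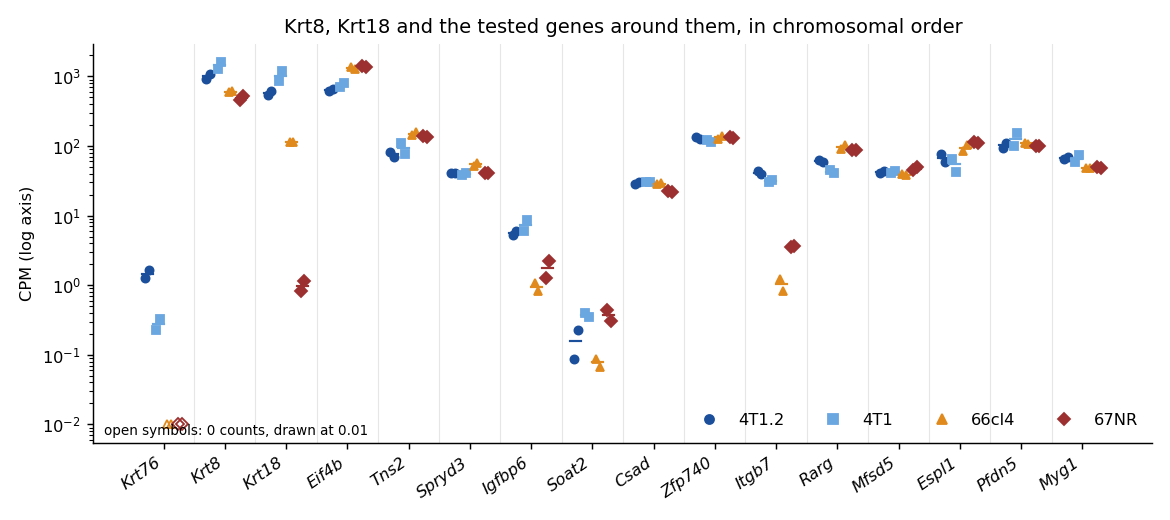
CPM of Krt8, Krt18 and the tested genes within 300 kb of them, in the order of the chromosome, on a log axis with 2 points per line and a bar at the mean. Krt18 in 67NR lay near 1 CPM, while Krt8 on one side and Eif4b on the other were above 400 CPM in the same libraries.

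Krt7 (Entrez gene 110310, chromosome 15, 101412403 to 101427806), a type II keratin of ductal and glandular epithelium, separated the lines into pairs. It measured 366 and 420 CPM in 4T1.2, 447 and 548 in 4T1, 2.45 and 2.57 in 66cl4, with 0.928 and 1.05 in 67NR. The pairs were far apart, with a 278-fold difference between 4T1.2 and 4T1 on the one hand and 66cl4 and 67NR on the other (log2 fold change 8.12, standard error 0.12, adjusted p = 1.48e-11, edgeR). Within the low pair, 66cl4 was 2.50-fold above 67NR (adjusted p = 0.000369, edgeR), with 111 and 115 counts against 34 and 65. Within the high pair, 4T1.2 was 1.27-fold below 4T1 and did not pass the test (adjusted p = 0.0659, edgeR). Relative to Krt8, Krt7 stood at 0.450 ± 0.0127 in 4T1.2 and 0.396 ± 0.00960 in 4T1 (RPKM ratio, SD, n = 2) and at 0.00473 and 0.00228 in 66cl4 and 67NR.

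Krt19 (Entrez gene 16669, chromosome 11, 100140810 to 100145926), the smallest type I keratin and a luminal marker, was close to the detection limit in all lines. Its libraries held 12 and 12 counts in 4T1.2, 30 and 54 in 4T1, 2 and 1 in 66cl4, with 0 and 1 in 67NR. The 4T1.2 and 4T1 libraries did not overlap those of 66cl4 and 67NR, at 0.211 to 1.17 CPM against at most 0.0442. Summed counts of 108 against 4 gave a ratio of 23 (95% exact interval 8.74 to 86.1, counting error only). The edgeR adjusted p was 0.000162 for this comparison and 0.0188 for 4T1.2 against 4T1. The call for 4T1.2 against 66cl4 (adjusted p = 0.0269, edgeR) was lost without any of the 4 libraries concerned, with adjusted p from 0.0589 (without replicate 1 of 4T1.2) to 0.138 (without replicate 2 of 66cl4). Krt19, unlike Krt8 and Krt18, contributed almost no RNA to the luminal keratins of these lines.

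The basal keratins were near the floor in every line. Krt5, the type II keratin of basal cells, had 0 to 3 counts per library in 4T1.2 and 4T1, 2 and 5 in 66cl4, with 3 and 9 in 67NR, or at most 0.146 CPM. Krt6a had 1 count in 1 library of 4T1.2 and 1 of 4T1 and none in the other 6 libraries, where 3 counts correspond to 0.0486 to 0.0819 CPM. Krt15 had 3 to 11 counts in 4T1.2 and 4T1 and 1 to 3 in 66cl4 and 67NR. These 3 genes did not pass the filter on low counts and were not tested. The Krt5 counts ran against those of the other members, with 5 counts in 4T1.2 and 4T1 against 19 in 66cl4 and 67NR, a ratio of 0.224 (95% exact interval 0.0655 to 0.622, counting error only). Without a filter its adjusted p was 0.0543 (edgeR). For Krt6a, 51.1% of the 75-base stretches are shared with other transcripts, mostly Krt6b, and for Krt5 7.77%.

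Krt17 and Krt14, the other basal type I keratins, passed the filter through their counts in 4T1.2 and 4T1. Krt14 (Entrez gene 16664) and Krt17 (16667) lie in the type I cluster on chromosome 11 with Krt15 (16665) and Krt19, at 100203162 to 100207510 and 100256215 to 100261029, whereas Krt5 (110308) and Krt6a (16687) lie in the type II cluster on chromosome 15. Krt17 had 76 and 97 counts in 4T1.2, 149 and 144 in 4T1, 0 and 1 in 66cl4, with 1 and 1 in 67NR. It reached at most 1.71 CPM in 4T1.2 and 3.11 CPM in 4T1, with no overlap with the other lines. The summed counts of 466 against 3 gave a ratio of 132 (95% exact interval 45.1 to 645), and the edgeR adjusted p was 7.1e-08. Krt14 was less separated than Krt17, at 0.441 to 0.755 CPM in 4T1.2 and 4T1, 0.164 and 0.308 in 67NR and 0.110 and 0.134 in 66cl4. It was 3.25-fold higher in 4T1.2 and 4T1 (log2 fold change 1.70, standard error 0.27, adjusted p = 0.000224, edgeR), on 25 to 42 counts per library against 5 to 19. Its difference between 4T1.2 and 67NR lay at the threshold (adjusted p = 0.0516, edgeR), and passed at 0.0308 without replicate 2 of 67NR, the library with 19 counts, where the log2 fold change rose from 0.87 to 1.47.

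The luminal members outweighed the basal members by 763-fold or more in each library, by RPKM. Summed basal keratins were 1.26 to 2.69 RPKM in 4T1.2 and 4T1 and 0.0996 to 0.291 RPKM in 66cl4 and 67NR. Trp63, which codes for p63, the transcription factor of basal epithelial cells and a known activator of Krt5 and Krt14, did not go with this sum. It had 6 to 22 counts per library in 4T1.2 and 4T1, 1268 and 1847 in 67NR and 6155 and 6205 in 66cl4 (log2 fold change -8.24, adjusted p = 2.03e-11, edgeR). The lines with p63 transcripts were those with the fewest Krt14 and Krt17 counts. Krt5 went the same way as Trp63, with 19 counts in these lines against 5 in 4T1.2 and 4T1. Of the 6 basal myoepithelial markers tested, p63 included, 1 was higher and 3 were lower in 4T1.2 and 4T1. Acta2, among the 3, had 3 to 9 counts per library in 4T1.2 and 4T1. It passed the filter only through 66cl4 and 67NR, so its direction was tied to the filter. The shares over all genes tested were 38.1% higher and 38.6% lower.

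Vimentin (Entrez gene 22352, chromosome 2, 13574311 to 13582826) was high in all lines and higher in those with more keratin. It measured 4804 and 6100 CPM in 4T1.2, 4743 and 6907 in 4T1, 3539 and 3012 in 66cl4, with 1893 and 2001 in 67NR. The libraries of 4T1.2 and 4T1 overlapped each other, and lay above those of 66cl4, which lay above those of 67NR. Vim was 2.23-fold higher in 4T1.2 and 4T1 than in 66cl4 and 67NR (log2 fold change 1.16, standard error 0.14, adjusted p = 2.74e-05, edgeR). It was 1.68-fold higher in 66cl4 than in 67NR (adjusted p = 0.00994, edgeR), a call that was lost without replicate 1 of 66cl4 (0.0696), replicate 1 of 67NR (0.0759) or replicate 2 of 67NR (0.0566). Its call for 4T1.2 against 66cl4 (adjusted p = 0.00626, edgeR) was likewise lost without replicate 2 of 4T1.2 (0.0528) or replicate 2 of 66cl4 (0.0555). Between 4T1.2 and 4T1 no difference passed the test (log2 fold change -0.10, standard error 0.19, adjusted p = 0.788, edgeR).

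Relative to the keratins, the order of vimentin turned. The ratio of Vim to the summed keratin RPKM was 2.44 ± 0.139 for 4T1.2 and 1.71 ± 0.119 for 4T1 (SD, n = 2), whereas it reached 4.27 ± 0.493 for 66cl4 and 3.86 ± 0.205 for 67NR. The 66cl4 and 67NR libraries overlapped and lay above all those of 4T1.2 and 4T1, because summed keratin RPKM differed more (1217 and 1840 in 4T1.2 and 4T1, 418 and 276 in 66cl4 and 67NR) than Vim. Of the fibroblast markers listed for comparison, 1 of the 7 tested was higher in 4T1.2 and 4T1 and 5 were lower. Over all genes tested, 38.1% were higher and 38.6% lower. Col1a2 and Col3a1, among the 5, had 0 to 2 counts per library in 4T1.2 and 4T1, so their direction was tied to the filter. In sum the 10 markers did not rise with Vim, at 116 to 172 CPM in 4T1.2 and 4T1 against 255 to 514 CPM in 66cl4 and 67NR. Nearly all of this sum came from the PDGF receptor genes Pdgfra and Pdgfrb, which differed in opposite directions. Over the pairs of lines Pdgfra was higher in 4T1.2 and 4T1 (log2 fold change 0.34, edgeR adjusted p = 0.00279) and Pdgfrb lower (-6.87). Pdgfra in 4T1 did not pass the test against 66cl4 (-0.23, edgeR adjusted p = 0.0907). The part of the fibroblast markers in the result was not tested. In bulk RNA, fewer cells of a type and less RNA per cell cannot be told apart.

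Of the 10 members, 7 passed the filter on low counts and were tested, 4 of them (Krt7, Krt8, Krt18 and Vim) with enough counts in both pairs of lines. These 4 were higher in 4T1.2 and 4T1 than in 66cl4 and 67NR (edgeR, Benjamini-Hochberg adjusted p under 0.05 over 13923 genes). The comparison called 76.8% of all genes tested (38.1% as higher and 38.6% as lower), so the passing of the test by itself sets no member apart. The sizes of the differences varied, from log2 fold changes of 8.12 for Krt7 and 6.17 for Krt18 to 1.16 for Vim and 1.13 for Krt8. In each of the 4 every library of 4T1.2 and 4T1 lay above every library of 66cl4 and 67NR, whereas 55.5% of all genes separated these libraries and 27.8% did so in this direction. Krt14, Krt17 and Krt19 were also called higher, but passed the filter only through 4T1.2 and 4T1, so their direction was tied to the filter. Krt5, with more counts in 66cl4 and 67NR, did not pass it, and neither did Krt6a and Krt15. Leaving out any library kept the 7 calls.

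Each of 4T1.2 and 4T1 was also compared with each of the other lines. Krt7, Krt8, Krt18 and Vim were higher in 4T1 than in 66cl4, where 70.1% of genes were called (34.9% higher), and than in 67NR, where 68.2% were called (33.8% higher). They were also higher in 4T1.2 than in 66cl4 (68.8% of genes called, 34.3% higher) and than in 67NR (67.9% called, 33.7% higher). Of the 3 members that entered through 4T1.2 and 4T1, Krt14 did not pass between 4T1.2 and 67NR, and the others were called in each of these comparisons. These comparisons share libraries with each other and with the one above.

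Between 4T1.2 and 4T1, 4 of the 7 were lower in 4T1.2 (Krt8, Krt17, Krt18 and Krt19), none was higher, and the median log2 fold change was -0.65. This comparison called 19.3% of all genes, 9.93% as lower. Krt18 was 1.76-fold lower (log2 fold change -0.81, standard error 0.16, adjusted p = 0.00645, edgeR), Krt17 1.81-fold (adjusted p = 0.0285), Krt8 1.44-fold and Krt19 3.77-fold lower. In each of these 4 genes replicate 1 of 4T1 was the lower of its pair and still lay above both 4T1.2 libraries. All 4 calls were lost without replicate 1 of 4T1.2 (Krt18 then had an edgeR adjusted p of 0.0606), 2 calls remained without replicate 2 of 4T1.2 and 1 without replicate 2 of 4T1, and Krt17 was also lost without either 67NR library (0.0532 and 0.0535). All 4 stayed lower in each of these fits. Luminal markers outside the keratins were lower in 4T1.2 as well, 7 of the 9 tested, among them Cdh1, the epithelial cadherin (log2 fold change -1.76), and Epcam (-1.61).

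Between 66cl4 and 67NR, 3 of the 7 members were higher in 66cl4 (Krt7, Krt18 and Vim), none was lower and 4 did not pass the test. The comparison called 44.7% of all genes, 22.3% as higher. Krt18 exceeded the others by far, at a log2 fold change of 6.82 beside 1.32 for Krt7 and 0.75 for Vim. Krt8 (0.29) and Krt14 (-1.02, standard error 0.47) did not pass. Krt17 and Krt19 had at most 3 counts in either line, too few for a fold.

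**Figure D4:**
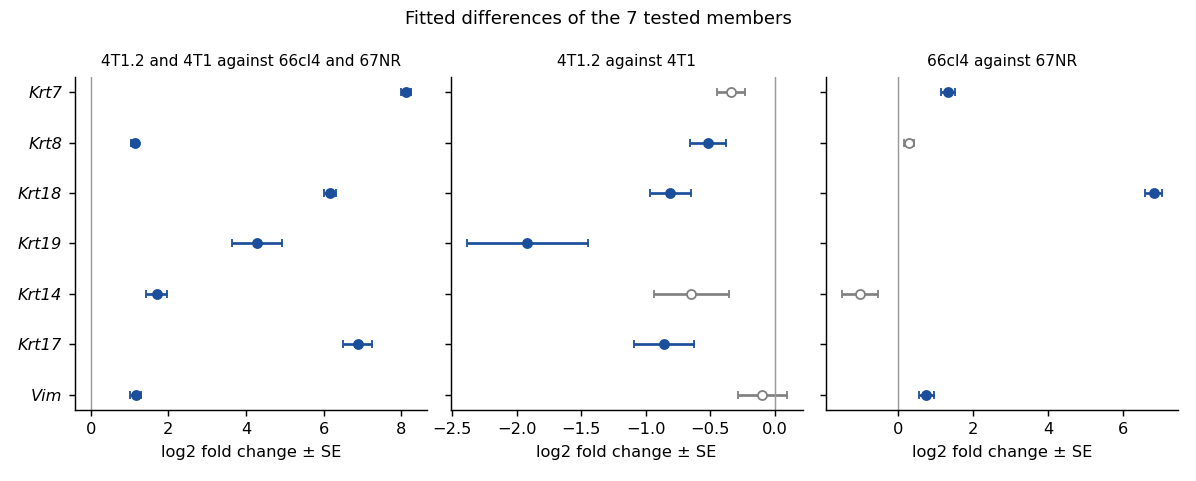
Fitted log2 fold changes with standard errors (bars) for the 7 tested members in 3 comparisons, with filled points for an adjusted p under 0.05 and open points otherwise, each panel on its own scale. Krt17 and Krt19 are left out of the third panel, where both lines had at most 3 counts. All 7 points lay above 0 for 4T1.2 and 4T1 against 66cl4 and 67NR, where Krt14, Krt17 and Krt19 had passed the filter only through 4T1.2 and 4T1, all 7 below 0 for 4T1.2 against 4T1, and Krt18 stood out at 6.82 for 66cl4 against 67NR.

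Of the 45 other keratin genes in the table, 10 passed the filter. Of these, 6 passed only through 4T1.2 and 4T1 (Krt13, Krt20, Krt23, Krt75, Krt76 and Krt87) and Krt83 only through 66cl4 and 67NR, so their direction was tied to the filter. Among the other 3, Krt10 and Krt80 were higher in 4T1.2 and 4T1 and Krt16 did not pass the test. All 45 together reached 29.1 to 39.9 CPM in 4T1.2 and 4T1 and 10.9 to 13.4 CPM in 66cl4 and 67NR. Krt80, a type II keratin, was the most abundant of them, at 924 to 1618 counts per library in 4T1.2 and 4T1 and 319 to 591 in the other lines (log2 fold change 1.40, standard error 0.12, adjusted p = 2.07e-06, edgeR). Krt23, a type I keratin, had 306 and 360 counts in 4T1.2 and 176 and 147 in 4T1 and a single count in all other libraries together. It was higher in 4T1.2 than in 4T1 (log2 fold change 0.96, standard error 0.19, adjusted p = 0.00867, edgeR), the opposite of Krt18. Krt76, a type II keratin of the palate, was also higher in 4T1.2 than in 4T1, at 71 and 95 counts against 14 and 15, and was at 0 in 66cl4 and 67NR. Krt83, a type II hair keratin, was the exception: it had 80 and 75 counts in 66cl4 and at most 6 in any other library. Krt10, the type I keratin of differentiated epidermis, had a log2 fold change of 0.77 (edgeR adjusted p = 0.00363) over the pairs of lines, but neither 4T1.2 (0.14, adjusted p = 0.651) nor 4T1 (0.57, adjusted p = 0.0674) passed the test against 67NR, where replicate 2 (2.46 CPM) lay above both 4T1.2 libraries (2.13 and 2.17). Krt87 had 36 to 51 counts per library in 4T1.2 and 4T1 and 0 to 2 in the other lines. Krt13, Krt16, Krt20 and Krt75 were named after their values were seen.

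Other intermediate filament genes showed no shift to one side. Of 14, 10 were tested, and 4 were higher and 3 lower in 4T1.2 and 4T1 than in 66cl4 and 67NR, with a median log2 fold change of 0.03. Among all genes tested, 38.1% were higher and 38.6% lower. Of the called filament genes, Gfap passed the filter on low counts only through 66cl4 and 67NR, and Bfsp1 only through 4T1.2 and 4T1. The direction of these genes was tied to the filter. The lamins, filaments of the nucleus, differed little: the log2 fold changes were -0.11 for Lmna (standard error 0.07, edgeR adjusted p = 0.204), 0.00 for Lmnb1 (standard error 0.07) and 0.33 for Lmnb2 (standard error 0.08, adjusted p = 0.00421). Nes and Synm, whose products assemble with vimentin, differed in opposite directions, with nestin lower (-0.74) and synemin higher (2.73). Des, the muscle filament desmin, had 6 to 17 counts per library in 4T1.2 and 4T1 and 162 to 424 in 66cl4 and 67NR (-4.74, standard error 0.18, adjusted p = 5.76e-09, edgeR).

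Genes that link filaments to junctions and to other parts of the cell went both ways. Of 15 linkers, all tested, 8 were higher and 5 lower in 4T1.2 and 4T1 (median log2 fold change 0.35). Over all genes tested, 38.1% were higher and 38.6% lower. Jup, coding for plakoglobin of desmosomes, had 4789 to 7594 counts per library in 4T1.2 and 4T1 and 15 to 21 in the other lines (log2 fold change 8.21, standard error 0.14, adjusted p = 2.87e-11, edgeR). Dsp, coding for desmoplakin, which ties keratin filaments to desmosomes, was also higher (5.19), at 47 to 85 counts per library against 0 to 3. It passed the filter only through 4T1.2 and 4T1, so its direction was tied to the filter. The crosslinkers Plec, Dst and Macf1 and the hemidesmosome integrin Itgb4 were lower, with log2 fold changes of -1.03, -0.63, -0.66 and -1.06. For Dst, neither 4T1.2 (-0.43, edgeR adjusted p = 0.118) nor 4T1 (-0.29, adjusted p = 0.269) passed the test against 67NR. The 6 linkers named so far are those with the highest levels or the largest differences between the pairs of lines. Ppl, coding for periplakin and named after its values were seen, had 2550 to 4068 counts per library in 4T1.2 and 4T1 and 1309 and 1332 in 66cl4, with 6 and 7 in 67NR (66cl4 against 67NR, log2 fold change 7.76, edgeR adjusted p = 2.15e-08).

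Transcription factors linked to keratin or vimentin expression went both ways: of 17, 14 were tested, 4 were higher and 6 lower in 4T1.2 and 4T1, and the median log2 fold change was -0.05. Shares over all genes tested were 38.1% higher and 38.6% lower. Snai1 and Snai2, repressors that bind the E-box searched for above, differed in opposite directions. Snai1 had 562 to 1250 counts per library in 4T1.2 and 4T1, 2 and 1 in 66cl4 and none in 67NR. Snai2 had 0 to 3 counts in 4T1.2 and 4T1 and 2689 to 4808 in 66cl4 and 67NR. Snai1 passed the filter on low counts only through 4T1.2 and 4T1, and Snai2 and Grhl1 only through 66cl4 and 67NR. The direction of these genes over the pairs of lines was tied to the filter. Zeb1, a repressor of epithelial genes, followed Snai2, with 15 to 28 counts per library in 4T1.2 and 4T1, whereas 66cl4 and 67NR held 2311 to 4026. Zeb2 and Tfap2a did not pass the test (log2 fold changes -0.11 and 0.20, edgeR adjusted p = 0.224 and 0.123), and Twist1 was lower (-0.86). Between 66cl4 and 67NR, 8 of the 14 were higher in 66cl4, 2 were lower and 4 did not pass. That comparison called 44.7% of all genes, 22.3% as higher. The 8 were Trp63 (2.09), Tfap2c, coding for AP-2 gamma of luminal cells (3.51), Grhl1 (1.71), Elf3, an epithelial Ets factor (1.06), Klf4 (0.68), Tfap2a (0.62), Snai2 (0.50) and Twist1 (0.33). Klf5 and Grhl2 were lower, with log2 fold changes of -1.02 and -2.84. Over the pairs of lines, Tfap2c and Elf3 were higher in 4T1.2 and 4T1 (6.64 and 4.81). The part of these factors in the keratin differences was not tested. Klf4, Klf5, Grhl1, Grhl2, Tfap2c, Elf3, Zeb1, Cdh1, Esr1, Muc1, Gata3, Col1a2, Col3a1, Acta2, Gfap and Bfsp1 were named after their values were seen.

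**Figure D5:**
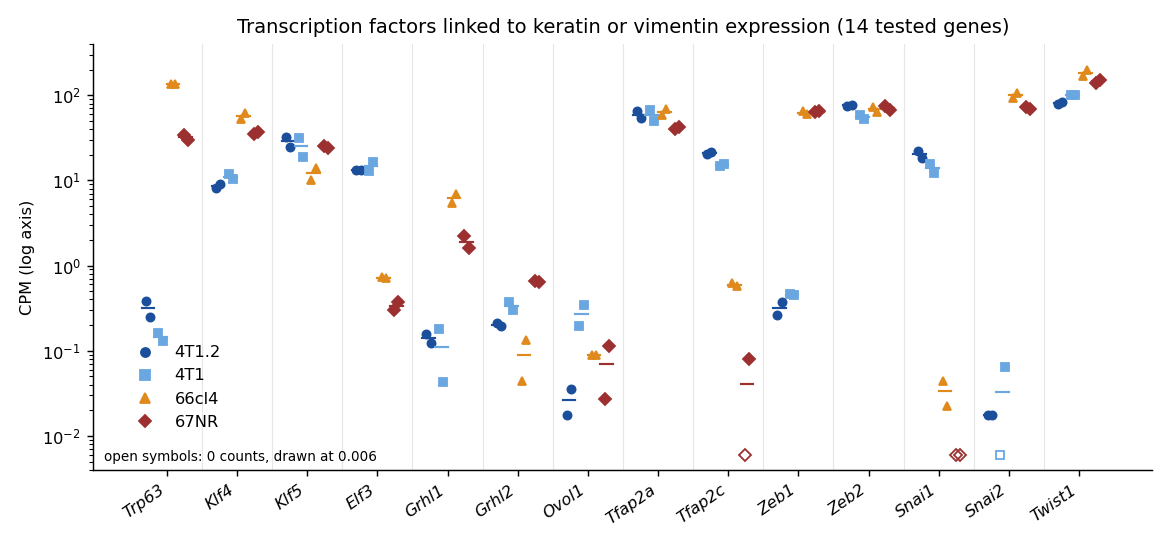
CPM of the 14 tested transcription factor genes in each library on a log axis, 2 points per line with a bar at the mean, and open symbols for libraries with 0 counts. Trp63, Zeb1 and Snai2 were high in 66cl4 and 67NR and under 1 CPM in 4T1.2 and 4T1, and Snai1, Elf3 and Tfap2c the reverse.

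For each tested member, the genes with the most similar pattern were found by the root mean square difference of centred log2 CPM over the 8 libraries, which fall into 4 lines and so give few independent points. For Krt18 these were Pxdc1 (0.49), B3glct (0.63) and Arhgap29 (0.65), the largest differences of any member. For Krt8 they were Casp8 (0.11), Scly (0.11) and Ppp1r11 (0.12). This measure grows with the span of a gene's levels, which was wider for Krt18, so the differences do not compare closeness between members. Pearson correlations with these genes were 0.987 to 0.993 for Krt18 and 0.984 to 0.992 for Krt8. For Vim the nearest genes were Cnpy2 (0.10), Grcc10 (0.11) and Fbxo4 (0.11), and for Krt7 Mapk11, Fbxo2 and Ano1, each at 0.35. Krt17 was nearest to Cxcl16 (0.21), Nid1 (0.24) and Prss8 (0.28), Krt14 to Ctsl, Lmtk3 and Dlgap1 (0.21 each) and Krt19 to Slc17a7 (0.31), Sdcbp2 (0.33) and Catsperd (0.34). No keratin was among the 3 nearest genes of any other keratin.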

How the data were processed

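Total RNA of the 4 lines was made into libraries with Illumina's TruSeq RNA v2 protocol, 2 biological replicates per line, and reads were aligned by the authors to mm10. With featureCounts they counted reads per Entrez gene. For these steps the study refers to those of its endothelial libraries, which were aligned with Rsubread and counted over its built-in annotation. The deposited files hold these raw counts and a gene length, from which RPKM was computed here. Whether counting used strand is not given in the sources used here, so genes overlapping on opposite strands could share reads. Krt5, Krt6a, Krt7 and Krt8 each overlap a predicted gene.

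From the counts, 25275 of 27179 identifiers (93.0%) were matched to RefSeq (GRCm38.p6). After filterByExpr (15269 genes), ribosomal genes, predicted genes and unmatched identifiers were removed, which took 5.33% to 7.94% of the counts of a library and left 13923 genes. Lines were compared by the quasi-likelihood F-test of edgeR (version 4.0.16 with limma 3.58.1 under R 4.3.3, legacy fit, TMM scaling) with a mean per line over all 8 libraries, which left 4 residual degrees of freedom. Standard errors were derived from the fold change and its F statistic and are approximate. The biological coefficient of variation was 9.73%. Adjusted p-values are Benjamini-Hochberg values over all genes tested, with a threshold of 0.05. A fold against a group with 1 to 3 counts is given as a ratio of summed counts per TMM-adjusted library size with an exact 95% interval, which covers counting error only, and fitted values of such genes depend on the prior count of 0.125. Replicates differed beyond sampling noise (chi-square per degree of freedom 9.58 to 70.4). Whether replicates came from independent cultures is not stated, so p-values measure the spread between these libraries.

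The members and lists were chosen with earlier results of these data known. The rule named all 10 members, the 6 most abundant other keratins, from each list of filament, linker and regulator genes the 4 most abundant tested genes and the 2 further with the largest change, and the 3 genes nearest to each member. Shared sequence was counted over 75-base stretches of the reference transcripts (GENCODE M21). Promoters came from RefSeq, where 6 of the 10 members had an entry.

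Other settings tried were size factors by DESeq2, library totals, no filter, 10 or more counts in each library, keeping all annotation classes, the Wald test of DESeq2 1.42.0, limma-voom, edgeR's newer fit, a prior count of 2, a fold threshold of 1 on the log2 scale, a replicate block and leaving out each library. The fit was tested on simulated data. Figures were drawn with matplotlib 3.10.9. The endothelial RNA-seq of the study was not analysed here.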

Additional observations from a re-analysis of the deposited data

How the results depend on the processing

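Members called kept their direction in all settings except 3 values that did not pass the test to begin with. The log2 fold change of Vim in 4T1.2 against 4T1 ranged from -0.34 to 0.20 when a library was left out, turning to 0.07 without replicate 1 of 4T1.2 and 0.20 without replicate 2 of 4T1. That of Krt17 in 66cl4 against 67NR rests on 1 count against 2 and ranged from -3.25 to 0.12, turning without replicate 1 of 66cl4. The number of members called in 4T1.2 against 4T1 ranged from 0 to 5 when a library was left out, and was 0 when tested against a log2 fold change of 1. That test also left 4 calls in 4T1.2 against 66cl4 and 1 in 66cl4 against 67NR, and took those of Krt8 and Vim in the pooled comparison (adjusted p 0.13 and 0.158), whose fitted changes are close to 1. With at least 10 counts in every library only Krt7, Krt8, Krt18 and Vim could be tested. All 4 were called in the pooled comparison and in 4T1.2 against 66cl4, 4T1 against 66cl4 and 4T1 against 67NR, and 2 in 4T1.2 against 4T1. With CPM in place of RPKM the ratio of type II to type I keratins was 2.37, 1.90, 5.31 and 386 in 4T1.2, 4T1, 66cl4 and 67NR, and with all annotated keratins it was 150 in 67NR. Over the single members, 16 of 518 values under settings that kept all libraries lost the call, 15 of them in the test against a log2 fold change of 1 and 1 in DESeq2's Wald test (0.0765 for Krt17 in 4T1.2 against 4T1), and 6 gained it. Of 392 values with a library left out, 20 lost the call, 3 gained it and 3 turned. Scaling by library totals moved the median log2 fold change of all genes most in 4T1 against 67NR, from -0.010 to -0.176, and changed no call of a member. With the replicate number as a block, 7 members were called in the pooled comparison, 5 in 4T1.2 against 4T1 (Krt7 at 0.0186) and 4 in 66cl4 against 67NR (Krt8 at 0.0433). Deviations of same-numbered libraries correlated at -0.123 to 0.27, with 0.27 for 4T1.2 and 4T1. The labels do not say whether the numbers pair the samples, and the main fit did not use them. Of the 21 most similar genes, 13 stayed with a prior count of 0.5 and 2 by Pearson correlation. Depth limits Krt5, Krt6a and Krt15, which stayed under 12 counts per library.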
